A study of Homo sapiens with 66 samples.

Results

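The 12 libraries described here come from untreated DLD-1 cells, an established colorectal adenocarcinoma line, and were chosen by their labels from 66 in the series. They are 3 replicates each of AID-NXF1 cells (genotype AID-FLAG-NXF1), AID-GANP cells (AID-HA-GANP1), AID-TPR cells (AID-NeonGreen-TPR) and the parental line (genotype original). The question was which genes already differed from the parental cells before auxin was added, in a single clone or in all 3. In each tagged line a sequence for an auxin-inducible degron (AID) had been placed by CRISPR/Cas9 in both copies of the endogenous gene. The ligase TIR1, which recognises the degron once auxin is present, had been placed at RCC1 together with an infrared fluorescent protein and a blasticidin resistance marker. The parental cells carry neither. Total RNA was sequenced after ribosomal RNA had been removed, at an early passage of the edited cells. The tagged lines carry no agent and no time in their labels, and the parental libraries carry no agent and a time of 2 h.

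NXF1 is the main receptor that carries mRNA through the nuclear pore. GANP, encoded by MCM3AP, is the scaffold of TREX-2, a complex that docks at the pore and hands messenger ribonucleoprotein to the export machinery. TPR forms the filaments of the nuclear basket, the inner face of the pore, where TREX-2 is anchored. A degron line serves as its own control when auxin is added. Its untreated state may differ from the parental cells through the editing, the integration of TIR1 or the growth of a clone. The study's methods also name a possible loss of tagged protein once TIR1 is present. These, and differences between cultures, cannot be told apart here. Each tagged line is a selected line and was compared with 1 parental population. The study calls its replicates independent, and they are cultures of the same line, so p-values measure the spread among these cultures.

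A supplementary sheet of the study names the treatments of the parental libraries the other way round from the labels. The labels were followed, and every main result was also computed with the 3 parental libraries labelled auxin (2 h) in place of those labelled untreated. Total counts per library ran from 26858492 to 41805610, and 17812 genes were tested. Of the intestinal epithelial markers CDX1, CDX2, VIL1, EPCAM, CDH17, KRT8, KRT18, KRT19 and KRT20, the summed level was between 7210 and 12900 CPM (counts scaled to library size) in every library, and CDX1 had no count in AID-NXF1. Summed levels of 6 fibroblast markers lay between 0.446 and 2.69 CPM, of 5 blood cell markers between 0.062 and 0.306 CPM and of 4 endothelial markers between 1.7 and 5.79 CPM.

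AID-NXF1 and AID-TPR cells stood far from the parental cells, and AID-GANP cells stood close to them. A gene was called when its Benjamini-Hochberg adjusted p in edgeR's quasi-likelihood test was under 0.05 and its fold was at least 1.3 or at most 0.7. In AID-NXF1 cells 2418 genes were called higher (13.6% of those tested) and 2218 lower (12.5%). In AID-TPR cells 2513 were higher (14.1%) and 2098 lower (11.8%). In AID-GANP cells 977 were higher (5.49%) and 447 lower (2.51%). The limits are not symmetric on the log scale, and with 1.3-fold asked in both directions the lower genes numbered 2964, 2853 and 649 in AID-NXF1, AID-TPR and AID-GANP, so lower genes then outnumbered higher ones in the former pair. Differences of at least 2-fold that passed the adjusted p numbered 1457 in AID-NXF1, 1638 in AID-TPR and 287 in AID-GANP. Differences of at least 10-fold, by the fitted values, numbered 136, 105 and 20 in the same order. The median log2 difference over all tested genes was -0.008, -0.003 and -0.003 in AID-NXF1, AID-GANP and AID-TPR, which the normalisation sets near 0.

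The first principal component of log2 CPM held 47.3% of the variance and separated AID-NXF1 and AID-TPR libraries from AID-GANP and parental ones. The second held 30.2% and separated AID-NXF1 from AID-TPR. The third held 8.6% and separated AID-GANP from the parental libraries. Replicates of each line lay together. AID-TPR replicate 2 was the most displaced within its group, with a score of -54.55 on the second component against -42.03 and -44.07 in replicates 1 and 3.

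**Figure D1:**
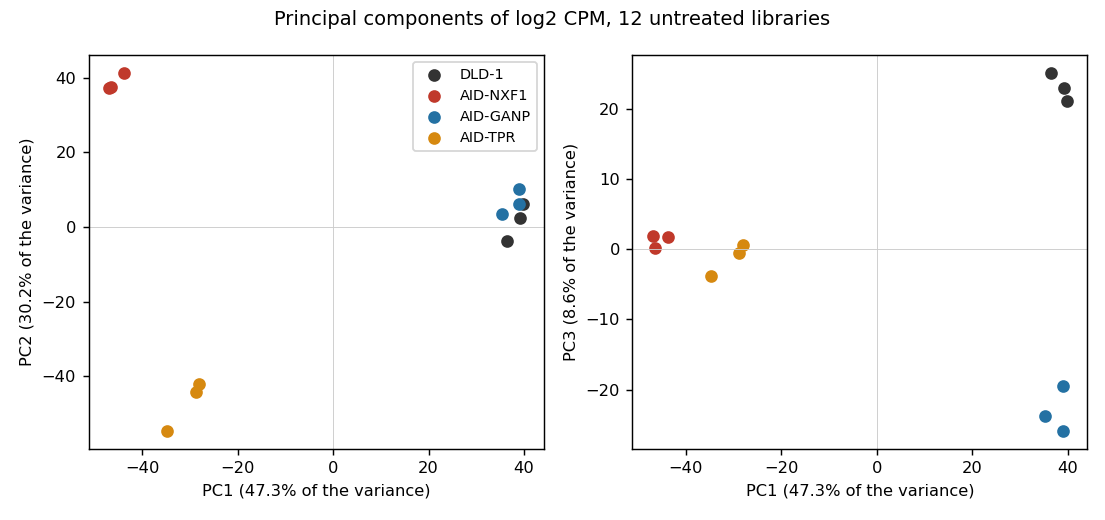
Principal components of log2 CPM in the 12 untreated libraries. Each point is a library, coloured by line. Axes give component scores with the share of variance in percent. Left, first against second component; right, first against the third. The 3 libraries of each line form a group, and AID-GANP separates from parental DLD-1 on the third component (8.6%).

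The tagged lines also differed from each other, in comparisons added after the data were seen. Between AID-NXF1 and AID-TPR 3905 genes were called (21.9%), between AID-NXF1 and AID-GANP 4632 (26.0%) and between AID-TPR and AID-GANP 4881 (27.4%). Against the mean of the other 2 clones, AID-NXF1 had 1870 genes higher (10.5%) and 1641 lower (9.21%), AID-GANP 2957 higher (16.6%) and 1523 lower (8.55%), and AID-TPR 2184 higher (12.3%) and 1497 lower (8.40%). The parental libraries take part in the fit of these contrasts, and with those labelled auxin in their place the counts were 3549, 4414 and 3708 against 3511, 4480 and 3681 in AID-NXF1, AID-GANP and AID-TPR.

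Libraries that share no sample with these gave a second reading. They also carry the response to auxin, which can add or remove calls. Auxin-treated libraries of the 3 clones (2 h, or 3 h for AID-GANP) were compared with the parental libraries labelled auxin. Of the 4636 genes called before auxin in AID-NXF1, 3523 (76%) were called in the same direction there, and 4436 had the same sign. In AID-TPR it was 3630 of 4611 (78.7%), and in AID-GANP 905 of 1424 (63.6%). With the untreated clones set against the parental libraries labelled auxin, 87.5% of the calls in AID-NXF1, 86.3% in AID-TPR and 75.9% in AID-GANP were made again in the same direction.

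RNA of the tagged genes was measured first. NXF1 RNA was higher in the clone that carries the tag on NXF1, with 123, 131 and 122 normalised CPM in the 3 libraries against 50.4, 53.1 and 50.7 in parental cells. The groups did not overlap, and the log2 difference was 1.29 (SE 0.059, adjusted p = 1.95e-10), a fold of 2.44. AID-GANP cells held 51.9, 54.4 and 60.1 CPM of NXF1 and AID-TPR cells 58, 58.5 and 57.1 CPM. NXF1 lies on chromosome 11 at 62792123-62806302 (GRCh38, minus strand), and no other annotated gene shares its exons.

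MCM3AP RNA was 131, 142 and 137 CPM in AID-GANP cells and 111, 109 and 116 CPM in parental cells. The log2 difference of 0.29 (SE 0.055, adjusted p = 0.00197) was under the fold asked for. In AID-TPR cells MCM3AP was 140, 147 and 157 CPM and was called higher by 0.40 (SE 0.055, adjusted p = 3.08e-05). That value lies close to the limit of 1.3-fold, which is 0.38 on the log2 scale. Against the parental libraries labelled auxin it was 0.37 and was not called. MCM3AP shares part of its exons with other annotated genes, among them the antisense gene MCM3AP-AS1.

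TPR RNA was lowest in the clone tagged on TPR, at 156, 140 and 162 CPM against 198, 210 and 199 CPM in parental cells. The log2 difference there was -0.41 (SE 0.057, adjusted p = 3.86e-05), which did not reach the fold asked of lower genes. RCC1, the nucleotide exchange factor of the GTPase Ran and the site of the TIR1 integration, was 254, 254 and 252 CPM in parental cells. AID-GANP cells held 142, 147 and 145 CPM of RCC1, all under every other library, a log2 difference of -0.81 (SE 0.073, adjusted p = 4.09e-06). In AID-NXF1 cells RCC1 was 221, 209 and 198 CPM and in AID-TPR cells 228, 193 and 247 CPM, and neither was called. RCC1 shares part of its exons with the annotated gene SNHG3, and TPR with other genes, among them PRG4.

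**Figure D2:**
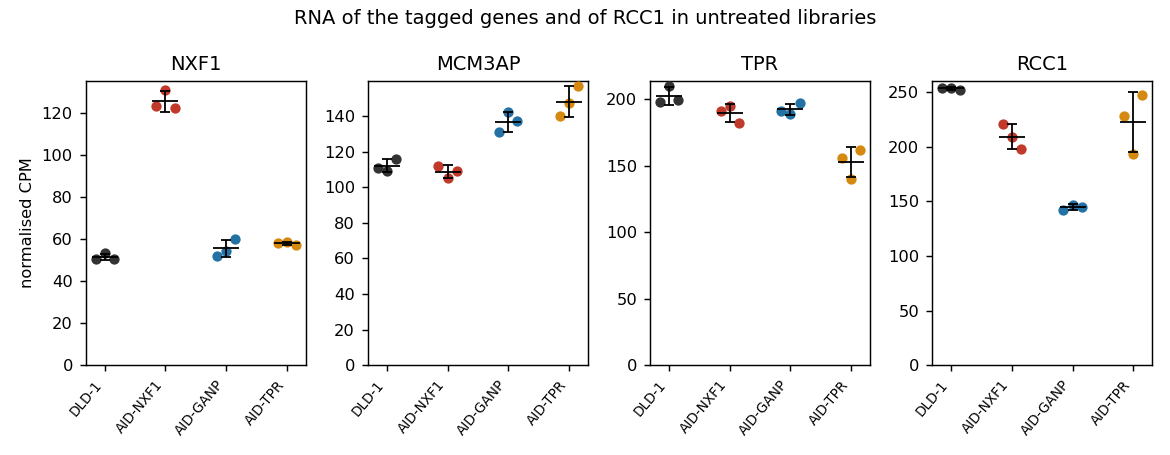
RNA of NXF1, MCM3AP (which encodes GANP), TPR and RCC1 in the untreated libraries, in normalised CPM from 0. Points are libraries, and bars are the mean and SD of 3. NXF1 is between 122 and 131 CPM in AID-NXF1 cells and at most 60.1 CPM in every other library; RCC1 is between 142 and 147 CPM in AID-GANP cells.

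Of 31 other nucleoporin genes, 1 was called higher and 1 lower in AID-NXF1, 2 higher in AID-GANP and 3 higher in AID-TPR. The higher share was 3.2%, 6.5% and 9.7% in AID-NXF1, AID-GANP and AID-TPR, beside 13.6%, 5.49% and 14.1% of all genes. NUP160, a scaffold subunit of the Y complex, was 98, 102 and 101 CPM in parental cells and 131, 163 and 152 CPM in AID-GANP (log2 0.57, adjusted p = 7.39e-05). NUP210, a membrane nucleoporin, was 121, 125 and 115 CPM in AID-NXF1 against 175, 180 and 199 CPM (log2 -0.62, adjusted p = 8.46e-05). Of 13 genes of the THO and TREX complexes, which load onto nascent mRNA, 2 were higher in AID-NXF1 (15.4%) and 1 in AID-TPR (7.7%), beside 13.6% and 14.1% of all genes. In AID-GANP the count was 0 by edgeR, by DESeq2 and at an unadjusted p under 0.05. POLDIP3 was the gene called in both of the former, at 65.4, 65.3 and 65.5 CPM in parental cells, 87.3, 87 and 86.4 CPM in AID-NXF1 and 87.1, 100 and 90.8 CPM in AID-TPR.

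Of 7 genes for the remaining TREX-2 subunits and the partners of NXF1, 1 was called higher in AID-NXF1 (14.3%, beside 13.6% of all genes) and 1 lower in AID-TPR (14.3%, beside 11.8%), and 0 in AID-GANP by edgeR, by DESeq2 and at an unadjusted p under 0.05. The first was NXT1, the small partner of NXF1, at 28.5, 28.1 and 29.5 CPM in AID-NXF1 against 22.6, 21.1 and 19.7 CPM (log2 0.44, adjusted p = 0.000296). Its call was lost against the parental libraries labelled auxin, where 0 of the 7 genes were higher in AID-NXF1. The auxin-treated libraries gave 0 as well. The second was ENY2, a subunit that TREX-2 shares with the SAGA complex, at 43.2, 41.3 and 42.8 CPM in AID-TPR against 66.8, 64.8 and 62.8 CPM (log2 -0.61, adjusted p = 2.77e-07).

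In all 3 clones 229 genes were called higher (1.29% of those tested) and 132 lower (0.741%), or 197 lower with 1.3-fold asked in both directions. The comparisons share the parental libraries, so a gene that was unusual in those libraries enters all 3 counts at once. Of the 229, 190 were protein-coding and 26 were at least 2-fold higher in every clone. Of the 132, 88 were protein-coding and 34 were at least 2-fold lower in every clone. The libraries that share no sample with these also carry the response to auxin, which can add or remove calls. In them 124 of the 229 (54.1%) and 66 of the 132 (50%) were called in all 3 clones again in the same direction. Against the parental libraries labelled auxin, 155 (67.7%) and 72 (54.5%) were. Nearly every higher gene kept its sign there, 227 of 229, and 123 of the 132 lower ones did.

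By the smallest of the 3 differences, the leading genes higher in every clone were BEND7, WSCD1, EEF1A2, BAHCC1, FOXA2 and DLL4. They were chosen for their differences, so the values that follow describe them. BEND7 encodes a protein with a BEN domain and lies on chromosome 10 at 13438484-13529014. It was at 0.145, 0.0578 and 0.0904 CPM in parental cells, at 0.88, 0.704 and 0.9 CPM in AID-GANP, at 8.61, 9.13 and 8.63 CPM in AID-NXF1 and at 12.5, 13.4 and 11.7 CPM in AID-TPR. Counts rose from 11 in the 3 parental libraries together to 76, 797 and 1248 in AID-GANP, AID-NXF1 and AID-TPR.

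EEF1A2, a translation elongation factor normally found in muscle and neurons, was also lowest in parental cells and next lowest in AID-GANP, but higher in AID-NXF1 than in AID-TPR. It was at 1.26, 2.6 and 2.83 CPM in parental cells, 5.28, 6.25 and 7.29 CPM in AID-GANP, 63.7, 95 and 94.2 CPM in AID-TPR and 506, 482 and 474 CPM in AID-NXF1. The log2 difference in AID-NXF1 was 7.80 (SE 0.22, adjusted p = 3.79e-13). BAHCC1, a chromatin protein with a BAH domain, was at most 0.363 CPM in parental cells and between 0.77 and 0.949 CPM in AID-GANP, 12.3 and 15 CPM in AID-TPR and 36.2 and 38.3 CPM in AID-NXF1. In each of these genes AID-GANP held the smallest rise.

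FOXA2, a pioneer transcription factor of endoderm, was at 0.774, 1.01 and 1.05 CPM in parental cells. It was 3.37, 6 and 8.53 CPM in AID-NXF1, 3.92, 4.84 and 4.28 CPM in AID-GANP and 1.92, 2.4 and 2.68 CPM in AID-TPR, so no library of a clone overlapped a parental one. DLL4, a Notch ligand, had log2 differences of 1.69, 1.26 and 1.49 in AID-NXF1, AID-GANP and AID-TPR (adjusted p = 1.44e-05, 0.0014 and 5.87e-05). WSCD1 rested on 6 counts in the parental libraries together and 18 in AID-GANP, where its call was lost against the parental libraries labelled auxin (adjusted p = 0.193), with DESeq2 (0.0573) and without AID-GANP replicate 1 or 2 or parental replicate 1 or 3 (0.0687 to 0.15).

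The leading genes lower in every clone were ZNF141, CGAS, ZNF182, CYP1A1, PLXNA2 and GPX3. ZNF141, a KRAB zinc finger gene on chromosome 4 at 337814-384868, was at 1.65, 1.79 and 1.6 CPM in parental cells. It had no count in the 3 AID-GANP libraries, which makes it at least 51.5-fold lower there with a floor of 3 counts over the group. It had 4 counts in AID-NXF1 and 3 in AID-TPR, the latter a ratio of 55.8 with an exact 95% counting interval of 18.8 to 273. CGAS, the cytosolic DNA sensor, was at 3.15, 2.89 and 3.89 CPM in parental cells and at most 0.293 CPM in any library of a clone. Its log2 differences were -5.17, -4.40 and -4.86 in AID-NXF1, AID-GANP and AID-TPR, with 8, 14 and 11 counts against 359.

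ZNF182 fell in steps. It was 4.77, 4.57 and 3.65 CPM in parental cells, 1.65, 1.5 and 1.36 CPM in AID-GANP, 0.404, 0.351 and 0.279 CPM in AID-TPR, and 2 counts in all in AID-NXF1. PLXNA2, a semaphorin receptor, was at 3.27, 3.67 and 5.24 CPM in parental cells and between 0.977 and 1.81 CPM in the 9 libraries of the clones. GPX3, a secreted glutathione peroxidase, was at 4.28, 4.22 and 3.95 CPM and between 1.14 and 1.8 CPM. The clones overlapped each other in PLXNA2, and in GPX3 AID-TPR lay lowest.

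CYP1A1 belongs to the genes of the aryl hydrocarbon receptor (AhR), a ligand-activated transcription factor that pairs with ARNT and binds xenobiotic response elements with the core GCGTG. Its classic targets are CYP1A1, CYP1A2 and CYP1B1, which oxidise its ligands, and TIPARP and AHRR, which limit its activity. The 250 bases before the RefSeq start (GRCh38.p14) of CYP1A1 and of the first of 3 starts of TIPARP are shown because both genes moved together in every clone. Capitals mark GCGTG on either strand, CACGC being its complement read 5′ to 3′.
CYP1A1, chr15:74725529-74725778, minus strand: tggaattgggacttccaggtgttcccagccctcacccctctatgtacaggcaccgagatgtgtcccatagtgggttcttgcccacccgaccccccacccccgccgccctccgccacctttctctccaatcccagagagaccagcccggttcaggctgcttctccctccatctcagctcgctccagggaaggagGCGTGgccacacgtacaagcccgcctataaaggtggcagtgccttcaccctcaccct
TIPARP, chr3:156674340-156674589, plus strand: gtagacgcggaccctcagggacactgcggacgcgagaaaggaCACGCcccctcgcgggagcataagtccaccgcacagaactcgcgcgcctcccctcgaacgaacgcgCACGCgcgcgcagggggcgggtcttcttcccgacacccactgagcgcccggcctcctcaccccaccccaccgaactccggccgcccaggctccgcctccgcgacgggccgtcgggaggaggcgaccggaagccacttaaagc
The core occurs 1 time in the CYP1A1 window and 2 times in the TIPARP window shown. It occurs 0 times in the windows of the later TIPARP starts. Of all 35116 promoter windows of this length, 32.2% hold it. Among the 7 AhR pathway genes with a window, 3 hold it in at least 1 window (CYP1A1, TIPARP and AHRR). That count is by gene, and a gene may have several windows, so it is not on the same base as the share of windows.

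Of the 9 tested AhR pathway genes, 6 were called lower in each clone (5 in AID-TPR by DESeq2), against 12.5%, 2.51% and 11.8% of all tested genes in AID-NXF1, AID-GANP and AID-TPR. Against the parental libraries labelled auxin 2 were lower in each clone and 1, 1 and 3 higher, and the medians went from -1.04, -0.82 and -1.04 to -0.19, 0.18 and 0.11. CYP1A1 was 203, 183 and 171 CPM in the parental libraries labelled untreated. It was 45.2, 28.1 and 7.71 CPM in AID-NXF1, 57.9, 24.1 and 8.53 CPM in AID-GANP and 103, 29.1 and 69.6 CPM in AID-TPR. Libraries of 1 line thus differed by several fold, and none reached a parental library. In the parental libraries labelled auxin CYP1A1 was 14.6, 14.3 and 9.61 CPM, within the range of the untreated clones.

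The direction of this difference therefore turned on which parental libraries were used. Against those labelled untreated the log2 difference of CYP1A1 was -2.78, -2.64 and -1.47 in AID-NXF1, AID-GANP and AID-TPR (SE 0.59, 0.59 and 0.55; adjusted p = 0.00119, 0.00582 and 0.0384). Against those labelled auxin it was 1.06, 1.19 and 2.37 (adjusted p = 0.171, 0.199 and 0.00502). The call in AID-TPR was also lost when any parental library, AID-TPR replicate 2 or 3, or AID-NXF1 replicate 2 was left out (adjusted p from 0.0506 to 0.122) and with DESeq2 (adjusted p = 0.109). TIPARP was 266, 284 and 287 CPM in the parental libraries labelled untreated and 85.4, 89.6 and 69.9 CPM in those labelled auxin. The clones lay between, apart from 1 AID-GANP library, with 157, 155 and 94.4 CPM in AID-NXF1, 131, 97 and 67.7 CPM in AID-GANP and 166, 152 and 151 CPM in AID-TPR.

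CYP1B1 was 101, 98.1 and 83.7 CPM and 42.2, 46 and 40 CPM in the parental libraries labelled untreated and auxin. The clones, between 40.4 and 62.7 CPM, were called lower than the former (log2 -0.82, -0.82 and -1.04) and not called against the latter. AHRR was not called in any clone, at 39.9, 40.6 and 39.5 CPM in parental cells. CYP1A2 was called lower in every clone, at 0.75, 1.21 and 1.12 CPM in parental cells and at most 0.438 CPM in the clones, and in no clone against the libraries labelled auxin.

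Another pair of the list did not depend on the label. NQO1, a quinone reductase that also answers to the oxidative stress factor NRF2, was 568, 591 and 576 CPM in parental cells. It was 157, 161 and 171 CPM in AID-NXF1, 223, 290 and 283 CPM in AID-GANP and 250, 263 and 209 CPM in AID-TPR. Its log2 differences were -1.83, -1.12 and -1.26, and against the parental libraries labelled auxin -1.76, -1.07 and -1.19, each called. ALDH3A1, an aldehyde dehydrogenase, was 122, 125 and 144 CPM in parental cells and between 29.1 and 86.8 CPM in the clones. Its differences of -1.86, -0.74 and -1.14 were -1.76, -0.66 and -1.04 against the libraries labelled auxin. The receptor AHR itself was called higher in AID-GANP and AID-TPR, by 0.49 and 0.48.

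**Figure D3:**
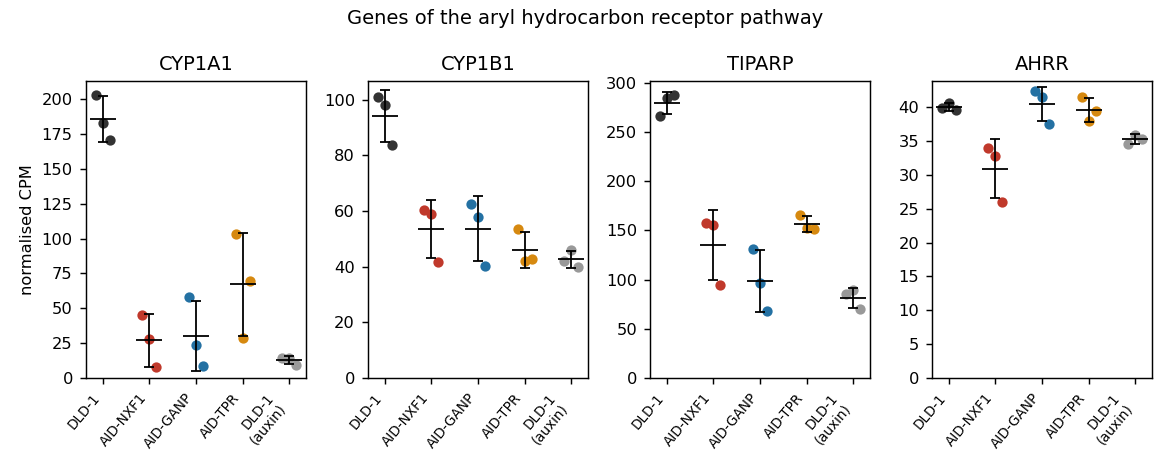
CYP1A1, CYP1B1, TIPARP and AHRR in normalised CPM from 0. Points are libraries, and bars are the mean and SD of 3. The grey points, marked DLD-1 (auxin), are the parental libraries labelled auxin; the other groups are labelled untreated. CYP1A1 is at least 171 CPM in the parental libraries labelled untreated and at most 14.6 CPM in those labelled auxin, with the clones from 7.71 to 103 CPM.

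Genes particular to a clone were those called against the parental cells and, in the same direction, against the mean of the other 2 clones. AID-NXF1 had 1298 such genes higher (7.29%) and 1103 lower (6.19%), AID-TPR 1459 higher (8.19%) and 1015 lower (5.70%), and AID-GANP 456 higher (2.56%) and 188 lower (1.06%). The mean of 2 clones is taken on the log scale, so a gene that is silent in 1 of them can pass even when the other is near the named clone. Under a fold of 2 in both directions the counts were 684, 837 and 118 in AID-NXF1, AID-TPR and AID-GANP. The genes named for each clone below were chosen and ranked by these differences, so their values describe them.

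In AID-NXF1 the leading higher genes were NPTX2, GYG2, ERICH5, RPE65 and SDHAF3, most of them near silent elsewhere. NPTX2, a secreted neuronal pentraxin on chromosome 7 at 98617285-98629869, was at 30.8, 30.8 and 31.8 CPM in AID-NXF1. It had 2828 counts there, 1 in the parental libraries, 2 in AID-GANP and 1 in AID-TPR. The ratio to parental cells was 3400 with an exact 95% counting interval of 609 to 134000. GYG2, a glycogenin of liver, was at 2.9, 3.2 and 3.13 CPM and at least 112-fold higher than in parental cells, which had no count. RPE65, the retinoid isomerase of the retinal pigment epithelium, was at 2.3, 2.73 and 1.74 CPM and at least 81.3-fold higher. ERICH5 was at 5.65, 5.71 and 5.5 CPM against at most 0.168 CPM in every library of the other lines.

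SDHAF3, an assembly factor of mitochondrial succinate dehydrogenase, was on in both AID-NXF1 and AID-TPR. It was at 5.96, 6 and 6.29 CPM in AID-NXF1 and 4.45, 4.03 and 4.55 CPM in AID-TPR, with no count in the untreated AID-GANP libraries or in the parental ones under either label. It was at least 221-fold higher than in parental cells in AID-NXF1 and at least 158-fold in AID-TPR. The 250 bases before its start and before that of ZNF141, the gene that was off in all 3 clones, are shown as examples. SDHAF3 went from no reads to expression. ZNF141 went from expression to 4, 0 and 3 counts in AID-NXF1, AID-GANP and AID-TPR. Capitals mark CG, the dinucleotide that DNA methylation acts on in these cells.
SDHAF3, chr7:97117448-97117697, plus strand: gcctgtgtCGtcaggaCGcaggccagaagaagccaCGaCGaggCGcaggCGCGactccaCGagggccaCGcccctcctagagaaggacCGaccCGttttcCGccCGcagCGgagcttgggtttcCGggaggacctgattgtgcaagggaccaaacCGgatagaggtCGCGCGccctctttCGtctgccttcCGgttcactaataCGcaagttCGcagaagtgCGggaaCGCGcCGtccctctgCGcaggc
ZNF141, chr4:337564-337813, plus strand: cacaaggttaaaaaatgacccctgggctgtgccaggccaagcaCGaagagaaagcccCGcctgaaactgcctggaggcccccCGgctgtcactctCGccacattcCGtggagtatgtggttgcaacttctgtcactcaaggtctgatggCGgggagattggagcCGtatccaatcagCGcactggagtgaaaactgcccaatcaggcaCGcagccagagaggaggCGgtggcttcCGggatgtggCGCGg
The SDHAF3 window holds 28 CG, and 15.9% of all windows hold as many or more. The ZNF141 window holds 13, and 46.6% of all windows do. Methylation was not measured in these libraries.

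The leading lower genes of AID-NXF1 by the same rule were KDM5D, ZFY, DDX3Y, USP9Y and EIF1AY, all on chromosome Y. Of 12 genes of that chromosome averaging 50 counts or more in a group, 10 were called lower in AID-NXF1, with a median log2 difference of -10.14. In AID-GANP the median was 0.02 and the range -0.17 to 0.76. In AID-TPR 3 were lower and 2 higher. Their summed count over the 3 libraries was 140 in AID-NXF1, 33402 in AID-GANP and 30666 in AID-TPR, against 41891 in parental cells. Which copies of the chromosome these cells carry was not measured.

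The next 5 lower genes of AID-NXF1, taken after their values were seen and leaving chromosome Y out, were ZNF718, PLA2G4A, KYNU, LAMA2 and POF1B. LAMA2, a laminin chain of basement membrane, was at 56.2, 59.9 and 68.5 CPM in parental cells and 1.07, 0.946 and 0.948 CPM in AID-NXF1 (log2 -5.95, SE 0.14, adjusted p = 1.22e-13). It was at 69.7, 86.8 and 87.4 CPM in AID-GANP, where it was called higher (log2 0.40, adjusted p = 0.0068), and 51.9, 51 and 59.4 CPM in AID-TPR, where it was not called. PLA2G4A, a cytosolic phospholipase A2, had 7 counts in AID-NXF1 against 671 in parental cells, and was called higher in AID-TPR (log2 1.62). KYNU, a kynureninase, had 1 count in AID-NXF1 against 166, and was also called lower in AID-TPR (log2 -1.21). ZNF718 had 3 counts against 1180, a ratio of 328 with an interval of 112 to 1590, and was called lower in AID-TPR too (log2 -2.26). POF1B was called higher in AID-TPR (log2 2.09).

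In AID-GANP the leading higher genes included CTHRC1, TRPV2 and IL2RG. These were also called higher, by less, in other clones, CTHRC1 in AID-NXF1 and AID-TPR (log2 1.13 and 1.19), TRPV2 in AID-NXF1 (log2 2.08) and IL2RG in AID-TPR (log2 0.88). CTHRC1, a secreted collagen triple helix protein, was at 13.4, 16.8 and 18.2 CPM against 1.23, 1.56 and 2.47 CPM, and IL2RG, the common gamma chain of cytokine receptors, at 2.38, 1.44 and 1.64 CPM against 0.411, 0.289 and 0.422 CPM.

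The leading lower genes of AID-GANP by the rule were CES4A, FUOM, LCN2, ABCB1 and ZNF141. ABCB1, the multidrug efflux pump P-glycoprotein, was at 47.9, 52.3 and 56.6 CPM in parental cells and 3.41, 4.38 and 4.53 CPM in AID-GANP (log2 -3.66, SE 0.19, adjusted p = 6.78e-09). In AID-NXF1 it was 160, 172 and 124 CPM, called higher by 1.54. CES4A, a carboxylesterase, was at 2.47, 3.35 and 2.44 CPM in parental cells and at most 0.11 CPM in AID-GANP. LCN2, the siderophore-binding lipocalin, was at 1.4, 1.56 and 1.39 CPM and at most 0.183 CPM, and was called higher in AID-TPR (log2 1.97). FUOM, a fucose mutarotase, had no count in AID-GANP, 5 in AID-TPR, 13 in parental cells and 462 in AID-NXF1. It met the rule through AID-NXF1, where it was called higher, and was at least 3.66-fold lower in AID-GANP than in parental cells.

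In AID-TPR the leading higher genes were HEPH, TDO2, KLK7, ABCA12 and GGT6. HEPH, a copper-dependent ferroxidase of the intestinal epithelium on chromosome X, was at 10, 10.3 and 6.22 CPM in AID-TPR. It had no count in the other 9 libraries, so it was at least 318-fold higher than in parental cells. TDO2, tryptophan dioxygenase, was at 7.14, 10.5 and 7.47 CPM against 0.0968, 0.26 and 0.151 CPM (log2 5.63, SE 0.27, adjusted p = 5.71e-10). KLK7, a skin protease, was at 24.2, 37 and 27.6 CPM against 0.411, 0.665 and 0.512 CPM, and 3.69, 4.04 and 2.78 CPM in AID-NXF1. ABCA12, a lipid transporter of keratinocytes, was at 8.42, 9.93 and 7.17 CPM against at most 0.332 CPM in parental cells. TDO2, KLK7 and ABCA12 were called higher in AID-NXF1 as well (log2 1.16, 2.73 and 1.05). Against the parental libraries labelled auxin, KLK7 stayed called there (log2 2.80). TDO2 (log2 1.17, adjusted p = 0.0672 by edgeR) and ABCA12 (log2 0.22, adjusted p = 0.585) did not.

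The leading lower genes of AID-TPR included ZNF430, ZNF714, ZNF256 and NETO2. ZNF430 and ZNF714 neighbour each other on chromosome 19, at 21020634-21060050 and 21082159-21125270. ZNF430 was at 5.95, 5.15 and 6.72 CPM in parental cells and had no count in AID-TPR, at least 197-fold lower. It was also called lower in AID-GANP (log2 -2.15, adjusted p = 5.67e-06) and AID-NXF1 (log2 -0.53). ZNF714 was at 37.9, 37.8 and 35.5 CPM in parental cells and 0.101, 0.234 and 0.0837 CPM in AID-TPR (log2 -8.01, SE 0.16, adjusted p = 3.44e-14). ZNF256, also on chromosome 19, had 2 counts in AID-TPR against 498, a ratio of 228 with an interval of 62.7 to 1890. NETO2, an auxiliary subunit of kainate receptors, was at 37.9, 40.5 and 40 CPM and 0.808, 1.08 and 1.06 CPM. ZNF714, ZNF256 and NETO2 were called lower in AID-NXF1 as well, by 1.01, 0.74 and 0.79 on the log2 scale, so what is particular to AID-TPR is the size of the difference.

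**Figure D4:**
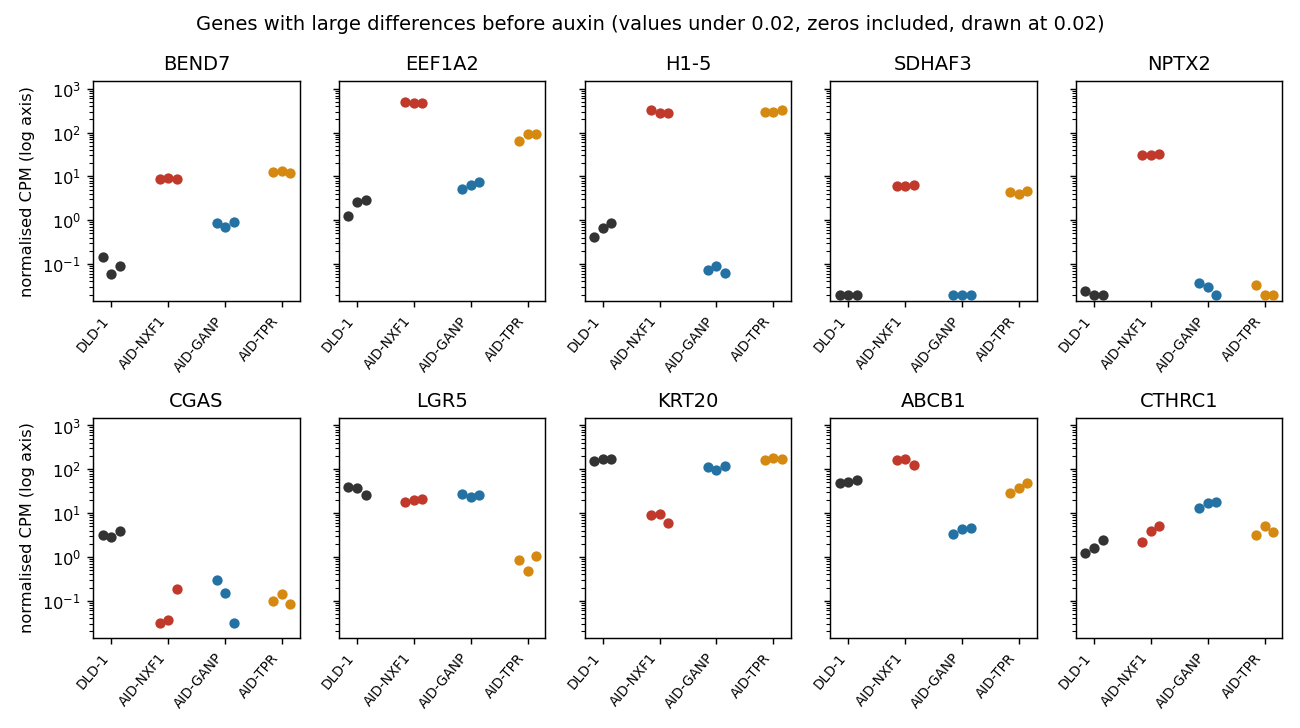
Selected genes with large differences before auxin, in normalised CPM on a log axis shared by all panels. Points are libraries, and values under 0.02, zeros included, are drawn at 0.02. BEND7 and EEF1A2 are higher and CGAS lower in all 3 clones. H1-5 is higher and SDHAF3 is on in AID-NXF1 and AID-TPR, and NPTX2 is on in AID-NXF1. LGR5 is low in AID-TPR, KRT20 in AID-NXF1 and ABCB1 in AID-GANP. CTHRC1 is higher in AID-GANP than in parental cells.

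Genes that went fully on or off were counted by level: over 1 CPM in every library of 1 group and at most 0.1 CPM in every library of the other. In AID-NXF1 11 genes were on and 24 off, in AID-TPR 4 on and 12 off, and in AID-GANP 1 on and 3 off. Zinc finger genes of the ZNF series made up 5 of the 10 protein-coding genes that were off in AID-NXF1 and lay outside chromosome Y. They made up 6 of 8 in AID-TPR and both in AID-GANP. Of all 17812 tested genes, 356 were of this series. That total includes noncoding genes and chromosome Y, so the shares are not on the same base. ZNF141 was off in every clone, ZNF605 in AID-GANP and AID-TPR, and ZNF649 and ZNF345 in AID-NXF1 and AID-TPR. ZNF649 had 438 counts in parental cells and none in either clone, at least 122-fold and 134-fold lower. HRK, a pro-apoptotic BH3-only gene, was on in AID-NXF1 at 2.11, 2.55 and 1.96 CPM and in AID-TPR at 1.62, 1.99 and 1.87 CPM, against 8 counts in all in parental cells.

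The ZNF genes as a list leaned the same way in these clones. Of 356 tested, 88 were called lower and 23 higher in AID-NXF1 and 68 lower and 26 higher in AID-TPR, that is 24.7% and 19.1% lower beside 12.5% and 11.8% of all genes. In AID-GANP 14 were lower and 14 higher (3.9% each, beside 2.51% and 5.49%). The medians were -0.18, -0.10 and 0 on the log2 scale in AID-NXF1, AID-TPR and AID-GANP, beside medians near 0 over all genes. Many of these genes are close copies of each other, so how the authors' counting treated shared reads may bear on single members. ZNF470 had no count in parental cells and 1.1, 1.46 and 1.61 CPM in AID-NXF1, so it rose while most called members fell. ZNF845 fell in AID-GANP, from 11.9, 11.7 and 13.4 to 1.8, 1.62 and 1.43 CPM, and differed there from the mean of the other clones by -3.10. ZNF577, at 1.06, 0.954 and 1.12 CPM in parental cells, had no count in AID-NXF1 or AID-TPR.

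Replication-dependent histone genes, whose RNAs lack poly(A) tails and are kept in libraries made without poly(A) selection, held 1 gene that differed widely between lines. H1-5, a linker histone, was at 0.411, 0.665 and 0.874 CPM in parental cells. It was at 322, 283 and 286 CPM in AID-NXF1 and 288, 294 and 328 CPM in AID-TPR, log2 differences of 8.86 and 8.89 (SE 0.13 each, adjusted p = 8.22e-16 and 7.81e-16). In AID-GANP it was at 0.0733, 0.0919 and 0.062 CPM and was called lower than in parental cells. Over the 54 tested members, 13 were lower and 4 higher in AID-NXF1, 3 and 5 in AID-TPR and 2 and 2 in AID-GANP. The lower share was 24.1%, 5.6% and 3.7% in that order, beside 12.5%, 11.8% and 2.51% of all genes. The higher share was 7.4%, 9.3% and 3.7%, beside 13.6%, 14.1% and 5.49%. The linker histones H1-3 and H1-2 fell in AID-NXF1 by 1.28 and 1.10 on the log2 scale.

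HOX genes specify position along the body axis. Of 26 tested, 12 were lower and 3 higher in AID-TPR, 4 lower and 7 higher in AID-NXF1, and in AID-GANP 0 by edgeR, 0 by DESeq2 and 2 higher at an unadjusted p under 0.05. The lower share was 46.2% in AID-TPR and 15.4% in AID-NXF1, beside 11.8% and 12.5% of all genes, and the higher share 11.5% and 26.9%, beside 14.1% and 13.6%. The median was -0.49 in AID-TPR and -0.23 in AID-NXF1, beside -0.003 and -0.008 over all genes. In AID-NXF1 the largest rises were in the HOXD cluster. HOXD13 was at 3.19, 3.93 and 4.04 CPM against 0.29, 0.376 and 0.633 CPM (log2 3.12, adjusted p = 4.44e-08), HOXD10 at 4.1, 3.38 and 4.11 CPM against 0.629, 0.81 and 0.904 CPM and HOXD11 at 2.02, 2.22 and 2.21 CPM against 0.508, 0.607 and 0.663 CPM. In AID-TPR HOXD10 and HOXD11 were called lower (log2 -0.77 and -1.01), and HOXD13 was called higher. HOXD9 was higher in AID-NXF1 (log2 0.91) and lower in AID-TPR (log2 -1.50).

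Wnt target genes were read because DLD-1 carries a defective APC, which leaves the pathway on. In AID-TPR 10 of 16 were called higher and 3 lower (62.5% and 18.8%, beside 14.1% and 11.8% of all genes), in AID-NXF1 3 and 3 (18.8% each, beside 13.6% and 12.5%), and in AID-GANP 0 by edgeR, 0 by DESeq2 and 1 higher at an unadjusted p under 0.05. The members did not move as a block. LGR5, a stem cell receptor, was at 39.8, 37.2 and 25.6 CPM in parental cells and 0.842, 0.467 and 1.03 CPM in AID-TPR (log2 -5.45, SE 0.21, adjusted p = 7.18e-11). It was 17.6, 19.8 and 21.3 CPM in AID-NXF1, called lower by 0.81 on the log2 scale, and 27.5, 23.8 and 25.9 CPM in AID-GANP. CD44, a cell surface receptor for hyaluronan, was at 7.69, 7.78 and 10.2 CPM in parental cells, 44.6, 50.4 and 39.7 CPM in AID-TPR and 25.3, 23.7 and 18.7 CPM in AID-NXF1. MYC was at 61.3, 76.7 and 69.2 CPM, and at 135, 187 and 151 CPM in AID-NXF1 and 124, 206 and 148 CPM in AID-TPR (log2 1.19 and 1.21). SP5, a direct Wnt target, moved against these, from 11.1, 10.4 and 13.3 CPM to 4.35, 3.89 and 3.44 CPM in AID-NXF1 and 6.97, 5.67 and 7.08 CPM in AID-TPR.

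Of 12 tested genes of the intestinal epithelium, 6 were lower and 3 higher in AID-NXF1, 5 lower and 0 higher in AID-GANP, by edgeR, by DESeq2 and at an unadjusted p under 0.05 alike, and 1 lower and 2 higher in AID-TPR. By DESeq2 1 rather than 3 was higher in AID-NXF1. The lower share was 50% in AID-NXF1, 41.7% in AID-GANP and 8.3% in AID-TPR, beside 12.5%, 2.51% and 11.8% of all genes. The higher share was 25% in AID-NXF1, 0% in AID-GANP and 16.7% in AID-TPR, beside 13.6%, 5.49% and 14.1%. In bulk RNA, fewer cells of a type and less RNA per cell cannot be told apart. KRT20, a keratin of differentiated enterocytes, was at 155, 170 and 172 CPM in parental cells and 9.02, 9.57 and 6.07 CPM in AID-NXF1 (log2 -4.34, SE 0.12, adjusted p = 5.15e-13). It was 111, 98.6 and 117 CPM in AID-GANP and 162, 182 and 171 CPM in AID-TPR. CDH17, the liver-intestine cadherin, was at 82.2, 95 and 124 CPM in parental cells, 30.6, 29.6 and 25.4 CPM in AID-NXF1 and 30.1, 30.5 and 33.3 CPM in AID-GANP. CDX2, the master regulator of intestinal identity, was at 179, 183 and 178 CPM in parental cells, 90.5, 85 and 90.7 CPM in AID-GANP and 120, 110 and 69.2 CPM in AID-NXF1. TSPAN8, a tetraspanin, fell most in AID-TPR, from 173, 158 and 142 to 47.3, 41.5 and 43.6 CPM. CEACAM5 was called higher in AID-NXF1 and AID-TPR at levels of at most 0.263 CPM in any library.

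Of 8 mesenchymal genes, 4 were lower and 1 higher in both AID-NXF1 and AID-TPR, and 1 was higher in AID-GANP. The lower share of 50% stands beside 12.5% and 11.8% of all genes, and the higher share of 12.5% beside 13.6%, 14.1% and 5.49%. TGFBI, a matrix protein induced by TGF-beta, was at 148, 152 and 135 CPM in parental cells and 40.9, 51.4 and 51.8 CPM in AID-TPR (log2 -1.59, adjusted p = 1.83e-08). CDH2, the neural cadherin, was lower in AID-NXF1 and AID-TPR (log2 -1.48 and -1.44), and so was VIM, which encodes vimentin (log2 -0.99 and -1.85), at no more than 1.83 CPM in any library. S100A4 was the higher gene of AID-GANP, at 81, 76.7 and 80.9 CPM against 38.3, 49.6 and 56.1 CPM. SNAI1, a repressor of epithelial genes, was the member that rose, to 5.96, 6.11 and 5.69 CPM in AID-NXF1 and 3.94, 3.8 and 3.82 CPM in AID-TPR, from 1.35, 1.16 and 1.81 CPM.

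Immediate early genes are the first to be transcribed after a growth factor or a stress. Of 13, 7 were called higher in AID-NXF1 (53.8%, beside 13.6% of all genes) and 8 in AID-TPR (61.5%, beside 14.1%), where 1 was lower, with medians of 0.68 and 0.95. In AID-GANP 0 were called by edgeR, by DESeq2 and at an unadjusted p under 0.05, with a median of -0.04. FOS was at 4.4, 2.98 and 8.98 CPM in parental cells, 16.9, 18.7 and 14.8 CPM in AID-NXF1 and 11.9, 14.6 and 13.9 CPM in AID-TPR (log2 1.63 and 1.31, adjusted p = 6.86e-05 and 0.00052). EGR1 was at 97.9, 168 and 149 CPM in AID-TPR (log2 1.44, adjusted p = 0.00689), and parental cells held 25.9, 25.3 and 103 CPM, so replicate 3 of the parental cells reached the lowest AID-TPR library. FOSB rested on single libraries, with 23 CPM in AID-NXF1 replicate 2 and 15.8 CPM in AID-TPR replicate 2 and at most 3.19 CPM in every other library. EGR3 had its highest level in AID-TPR replicate 2 as well, 19.9 CPM against 2.22 and 2.4 CPM in the other replicates. The second replicate of these clones thus carries much of the difference in FOSB, and of that in EGR3 in AID-TPR.

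Of 17 interferon-stimulated genes, 5 were lower and 2 higher in AID-NXF1, 4 lower and 2 higher in AID-TPR and 1 each way in AID-GANP. The lower share was 29.4%, 23.5% and 5.9% in that order, beside 12.5%, 11.8% and 2.51% of all genes, and the higher share of 11.8% in the former pair was under that of all genes. OAS2, an antiviral synthetase, was at 7.96, 8.33 and 7.81 CPM in parental cells, 2.24, 1.67 and 0.98 CPM in AID-NXF1 and 1.31, 0.935 and 1.59 CPM in AID-TPR. MX2 was higher in AID-GANP (log2 0.66) and lower in AID-NXF1 and AID-TPR (log2 -1.01 and -2.07). Of 14 p53 target genes, 1 was higher and 1 lower in AID-NXF1 and in AID-GANP, and 2 and 1 in AID-TPR. These shares, 7.1% or 14.3%, lie near or under those of all genes, apart from the lower share in AID-GANP, which rests on 1 gene. ZMAT3, an RNA-binding p53 target, rose in all 3, from 10.7, 10.9 and 12 CPM to between 13.6 and 22 CPM. CDKN1A, which encodes the inhibitor p21, was the lower gene of AID-NXF1, at 5.68, 6.91 and 10.8 CPM against 13.8, 19.1 and 23.3 CPM, and GDF15 that of AID-GANP (log2 -1.12).

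Of 16 proliferation genes, 3 were higher in AID-GANP (18.8%, beside 5.49% of all genes) and 1 in AID-TPR (6.2%, beside 14.1%). In AID-NXF1 the count was 0 by edgeR and at an unadjusted p under 0.05, and 1 by DESeq2. The list did not rise as a whole in AID-GANP, where the median log2 difference was -0.05, with 7 members above 0 and 9 below. MKI67, the Ki-67 gene of cycling cells, was at 437, 449 and 420 CPM in AID-GANP against 244, 245 and 259 CPM in parental cells (log2 0.80, adjusted p = 4.34e-05), above every other library. Of 10 imprinted genes, 4 were higher and 1 lower in both AID-NXF1 and AID-TPR (40% and 10%, beside 13.6% and 12.5%, and 14.1% and 11.8%, of all genes) and in AID-GANP 0 by edgeR, 0 by DESeq2 and 1 higher at an unadjusted p under 0.05. H19, the maternally expressed noncoding RNA, was at 412, 422 and 443 CPM in AID-NXF1 and 96.3, 156 and 129 CPM in AID-TPR against 29.4, 48.8 and 90.2 CPM in parental cells (log2 2.93 and 1.19). GRB10 was the lower member, by 0.59 and 0.88 on the log2 scale. CDKN1C, a cyclin-dependent kinase inhibitor, was higher in both clones (log2 1.20 and 1.04).

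**Figure D5:**
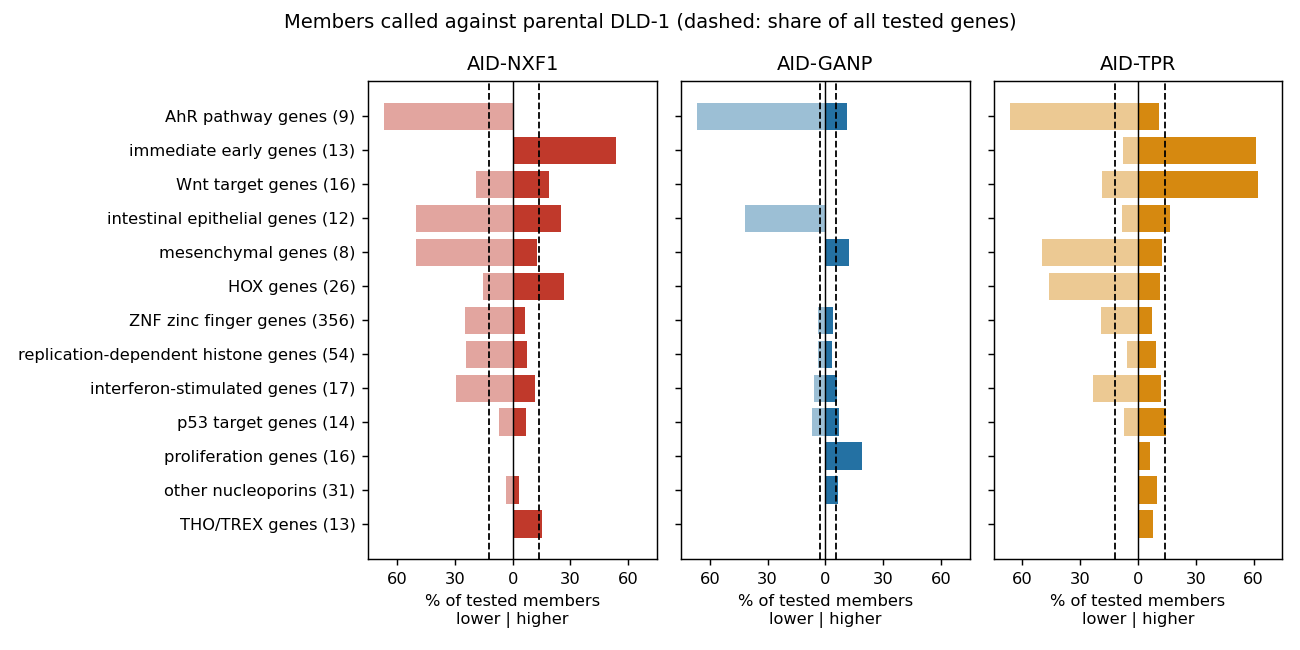
Share of each gene list called against parental DLD-1, in percent of its tested members (number in brackets). Bars to the right are members called higher, paler bars to the left members called lower, and dashed lines the shares of all tested genes. AhR pathway genes reach 66.7% lower in each clone, 6 of 9 genes, against 2 of 9 with the parental libraries labelled auxin; immediate early genes reach 53.8% higher in AID-NXF1 and 61.5% in AID-TPR; in AID-GANP most lists have few members called.

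Of 2 tested cancer-testis genes, MAGEB17 was lower in AID-NXF1 and AID-TPR (log2 -0.63 and -2.12), and in AID-GANP 0 were called by edgeR and by DESeq2 and 1 lower at an unadjusted p under 0.05. Neither the protocadherin genes of the PCDHB series nor the blood cell markers had a member among the tested genes. COL1A1, the tested fibroblast marker, was at most 1.74 CPM in any library, higher in AID-NXF1 (log2 1.16) and lower in AID-TPR (-1.02). VWF, the tested endothelial marker, was lower in AID-NXF1 (log2 -1.47).

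No autosome and no X chromosome moved as a whole. For genes averaging 50 counts or more, the median log2 difference farthest from 0 was -0.07 for chromosome 7 in AID-NXF1, -0.039 for chromosome 12 in AID-GANP and 0.07 for chromosome 17 in AID-TPR. Among 713 overlapping runs of 40 neighbouring genes, medians ran from -0.30 to 0.37 in AID-NXF1, from -0.19 to 0.19 in AID-GANP and from -0.46 to 0.27 in AID-TPR. The lowest run of AID-TPR lay on chromosome 7 at 26369310-30026702, with 15 genes called lower and 1 higher, and the run that overlaps it to the left ended in the HOXA cluster (13 lower and 1 higher). That cluster lies inside the lowest run too, so these runs and the HOX list may count the same genes. A run on chromosome 12 at 6965327-11171608 had 17 genes lower and none higher in AID-TPR. In these AID-TPR runs, in the order given, 12, 8 and 10 of the 40 genes share much of their exon length with another gene. The highest runs of AID-NXF1 and AID-TPR were the same stretch of chromosome 5 at 140547662-141990292, with 19 and 18 genes called higher. That stretch holds protocadherin genes, and 9 of its 40 genes share much of their exon length with another gene. In all these runs the same reads may thus stand behind several calls. The runs were named as extremes. Of all tested genes 11.8% were lower and 14.1% higher in AID-TPR, and 13.6% were higher in AID-NXF1.

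Genes that fell after auxin in other clones were read in untreated cells of the clone left out. In this series 1057 genes were called lower after auxin in AID-NXF1 (5.93%), 2052 in AID-GANP (11.5%) and 72 in AID-TPR (0.404%), each against its own untreated libraries. Of the 786 lower after auxin in both AID-NXF1 and AID-GANP, 101 were lower and 122 higher in untreated AID-TPR than in parental cells (12.8% and 15.5%, beside 11.8% and 14.1% of all genes). Of the 64 lower in AID-NXF1 and AID-TPR, 0 were lower and 2 higher in untreated AID-GANP by edgeR and by DESeq2, and 0 and 3 at an unadjusted p under 0.05, with a median of 0.04. Of all genes 2.51% were lower and 5.49% higher in that clone. All 72 genes lower after auxin in AID-TPR were also lower in AID-GANP, and of these 14 were lower and 8 higher in untreated AID-NXF1 (19.4% and 11.1%, beside 12.5% and 13.6% of all genes), with a median of -0.24 beside -0.008 over all genes. For AID-TPR both shares lie near those of all genes.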

How the data were processed

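Gene counts of 60 libraries of the series were read, and the 12 untreated libraries of AID-NXF1, AID-GANP, AID-TPR and parental DLD-1 were compared. The authors deposited raw counts, 1 table a library with 58051 genes, made by alignment to GRCh38 with Ensembl 87 genes. The submitters' processing notes name STAR 2.6.1c and featureCounts 1.5.2, and the study's methods name other releases of both. The strand setting was not given in the sources used here, so reads of overlapping genes cannot be told apart. Symbols and positions were taken from GENCODE 44 (56948 IDs matched, 1103 did not).

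Genes with over 1 CPM in at least 4 of the 60 libraries were kept (17812). One edgeR 4.0.16 quasi-likelihood fit (R 4.3.3, TMM normalisation) of the 12 libraries held 4 group means, and p-values were adjusted by Benjamini-Hochberg over all tested genes. SE is the absolute log2 difference divided by the square root of F. CPM values are scaled by TMM. The fit was tested on simulated counts. DESeq2 1.42.0 and other normalisations, filters, fold limits and library choices were alternatives. No 2 replicates agreed within sampling noise (chi-square per degree of freedom from 4.07 to 19.8). Intervals and floors cover counting error only, with a floor of 3 counts over the 3 libraries of a group.

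Genes were named by rules. These were the tagged genes and RCC1, 4 AhR genes, the 6 protein-coding genes in each direction with the largest smallest difference over the 3 clones, the 5 in each direction most particular to each clone, and up to 4 called members a list and clone. The rules for all 3 clones and for 1 clone asked for a mean of at least 50 counts in the higher group and no overlap between libraries. Some genes that met these rules are not reported here. The members and lists were chosen with earlier results of these data known. Promoter sequences are from RefSeq (GRCh38.p14), in windows of 250 bases before the start. The comparisons between pairs of clones, and the 5 genes named after chromosome Y genes filled the rule for AID-NXF1, were chosen after seeing the data.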

Additional observations from a re-analysis of the deposited data

Results flagged for a closer look

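The named genes below differed between the clones in the edgeR test of a clone against the mean of the other 2, all with an adjusted p under 0.05. Apart from NXF1, RCC1, CYP1A1 and TIPARP, they were named because they were called in this same test. Their passing it was therefore fixed by the choice and is no further evidence. Values are fitted log2 differences. Where a group had no count, the value depends on the prior count of the fit and is no bound. The causes of these differences were not tested.

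NXF1 differed by 1.15 in AID-NXF1, -0.62 in AID-GANP and -0.53 in AID-TPR, and RCC1 by -0.58 in AID-GANP. CYP1A1 differed by 1.24 in AID-TPR, and TIPARP by -0.56 in AID-GANP and 0.44 in AID-TPR.

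In AID-NXF1 the higher genes were NPTX2 (10.69), GYG2 (8.72), ERICH5 (7.17), RPE65 (6.0) and SDHAF3 (5.56). SDHAF3 was also on in AID-TPR, and passed because AID-GANP had no count. The lower genes were ZNF718 (-7.08), PLA2G4A (-7.09), KYNU (-6.12), LAMA2 (-6.06) and POF1B (-6.64).

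In AID-GANP the higher genes included CTHRC1 (2.06), TRPV2 (1.8) and IL2RG (1.68). The lower genes were CES4A (-6.34), FUOM (-7.1), LCN2 (-5.13), ABCB1 (-4.22) and ZNF141 (-3.4). ZNF141 was near 0 in all 3 clones, with 0 counts in AID-GANP against 4 and 3 in AID-NXF1 and AID-TPR.

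In AID-TPR the higher genes were HEPH (11.17), TDO2 (5.97), KLK7 (4.86), ABCA12 (4.73) and GGT6 (4.56). The lower genes included ZNF430 (-9.26), ZNF714 (-7.42), ZNF256 (-7.23) and NETO2 (-5.04).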

How the results depend on the processing

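With a fold of 2 in both directions, counts of called genes fell to 1457, 287 and 1638 for AID-NXF1, AID-GANP and AID-TPR against parental cells, 1001, 1211 and 1179 against the other clones, 60 in all 3 clones, and 684, 118 and 837 in a single clone. In the auxin libraries the counts were 4486 for AID-GANP, 1211 in all 3 clones and 1756 in AID-GANP alone. With 1.3-fold asked in both directions, higher and lower genes against the other clones numbered 1870 and 2364 in AID-NXF1, 2957 and 2112 in AID-GANP and 2184 and 2150 in AID-TPR. The auxin libraries carry the auxin response too. The other normalisations, filters, DESeq2 and the parental libraries labelled auxin kept each count within 1.5 times. Leaving out 1 library gave 4336 to 4727 for AID-NXF1, 1066 to 1457 for AID-GANP, 4236 to 4819 for AID-TPR and 259 to 363 in all 3 clones. Genes called in a single clone then numbered 2252 to 2442 in AID-NXF1, 448 to 658 in AID-GANP and 2151 to 2673 in AID-TPR.

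Of the AhR genes, CYP1A1, CYP1B1 and TIPARP changed sign. NQO1 and ALDH3A1 kept theirs against the parental libraries labelled auxin. Against the parental libraries labelled auxin, CYP1A1 was 1.06, 1.19 and 2.37, CYP1B1 0.32, 0.31 and 0.11 and TIPARP 0.72, 0.25 and 0.94 in AID-NXF1, AID-GANP and AID-TPR. By edgeR, CYP1A1 in AID-TPR (adjusted p = 0.00502) and TIPARP in AID-NXF1 (0.00695) and AID-TPR (0.00123) passed there. The others did not (0.0951 to 0.593). In the auxin libraries the values of CYP1A1, CYP1B1 and TIPARP were 3.68, 3.40 and 4.25, 0.56, 0.87 and 0.77, and 1.48, 2.29 and 2.25. The cause was not tested.

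With 0 counts asked of the lower group, 5 genes were on and 8 off in AID-NXF1, 0 and 1 in AID-GANP and 2 and 6 in AID-TPR. The median of chromosome 7 in AID-NXF1 was -0.028 with at least 500 counts, -0.064 with library sizes alone and -0.054 against the libraries labelled auxin. That of chromosome 12 in AID-GANP was -0.045, -0.03 and -0.043, and that of chromosome 17 in AID-TPR 0.098 with library sizes alone.

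With the replicate block, 4702, 1484 and 4667 genes were called, and 383 in all 3 clones. Same-numbered libraries of a clone and the parental line correlated at 0.054, 0.052 and -0.011 for AID-NXF1, 0.384, 0.025 and 0.106 for AID-GANP and 0.396, 0.059 and 0.029 for AID-TPR in replicates 1, 2 and 3. In no clone was every value over 0.1, so the numbers were not taken to pair the samples, though replicate 1 of AID-GANP, AID-TPR and the parental line deviated together.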
